A study of Mus musculus with 8 samples.

Results

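The 10 genes described here code for heat shock chaperones of mouse and for the transcription factor that switches many of them on. They were taken by symbol from a table of 52459 genes: Hspa1a, Hspa1b, Hsph1, Dnajb1, Hsp90aa1, Hsp90ab1, Hspa8, Hspd1, Hspe1 and Hsf1. RNA was sequenced from AE9a-positive leukaemia cells of the spleen of 8 moribund mice, 1 library per mouse. AE9a, a shortened RUNX1-RUNX1T1 fusion, drives acute myeloid leukaemia in mice. All 8 leukaemias descended from cKit-positive marrow cells of C57BL/6J mice into which a retrovirus had brought AE9a together with a Tet2 hairpin (genotype RTA shTet2). Tet2 is a dioxygenase of 5-methylcytosine. The hairpin is on while the mouse takes doxycycline. The knockdown PBS group (3 mice: 16, 17 and 19) consisted of secondary recipients that stayed on doxycycline and received PBS. Mice 21 and 23 were secondary recipients given PBS without doxycycline and are labelled Tet2-restored. In mice 28 and 30, also secondary recipients, doxycycline was continued and ascorbate was given. Mouse 12 was a primary recipient on a doxycycline diet, C57BL/6J, lethally irradiated and 6 to 8 weeks old at transplant, and has no replicate. The age and strain of the secondary recipients are not given in the sources used here. Each transplant held 50000 AE9a-positive cells with 500000 supporting marrow cells, so each spleen could hold blood cells outside the leukaemia. Withdrawal of doxycycline and return of Tet2 cannot be told apart in this design.

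Heat shock proteins bind unfolded or immature proteins and help them fold, and they are grouped by size. HSP70 proteins (Hspa1a, Hspa1b, Hspa8) bind exposed stretches of a client protein, HSP40 proteins such as Dnajb1 bring clients to them, and HSP110 (Hsph1) exchanges their nucleotide. HSP90 proteins (Hsp90aa1, Hsp90ab1) hold late folding states of kinases and receptors, and HSP60 with HSP10 (Hspd1, Hspe1) forms the folding chamber of mitochondria. Under stress HSF1 forms trimers that bind inverted repeats of the letters GAA, known as heat shock elements. Hspa1a, Hspa1b, Hsph1, Dnajb1 and Hsp90aa1 are strongly inducible in this way, whereas Hspa8 and Hsp90ab1 are abundant without stress.

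The sequences upstream of the start sites show what some of the members share. Of the 10 genes, 6 were in the RefSeq promoter table (GRCm38.p6): Hspa1a, Hspa1b, Hsph1, Dnajb1, Hspd1 and Hspe1. The 250 bases before the start sites of Hspa1a and Hspa1b are printed because they differ at only 3 positions (98.8% identical). The short stretches of Hsph1 and Hspe1 are printed because they hold heat shock elements. The coordinates are chr17:34972157-34972406 for Hspa1a, chr17:34959239-34959488 for Hspa1b and chr5:149636351-149636380 for Hsph1, all on the minus strand, and chr1:55088053-55088082 on the plus strand for Hspe1. Capitals mark the letters of a heat shock element, and every stretch runs 5′ to 3′ towards its own gene.
Hspa1a: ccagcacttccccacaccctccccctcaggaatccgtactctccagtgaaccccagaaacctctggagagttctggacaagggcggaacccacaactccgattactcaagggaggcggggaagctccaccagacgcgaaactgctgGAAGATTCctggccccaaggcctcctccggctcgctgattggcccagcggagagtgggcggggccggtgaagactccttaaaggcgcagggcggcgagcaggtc
Hspa1b: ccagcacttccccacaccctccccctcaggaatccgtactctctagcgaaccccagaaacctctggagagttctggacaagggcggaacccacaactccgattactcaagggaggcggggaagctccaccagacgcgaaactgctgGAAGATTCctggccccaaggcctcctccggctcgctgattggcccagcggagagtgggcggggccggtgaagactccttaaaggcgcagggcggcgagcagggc
Hsph1: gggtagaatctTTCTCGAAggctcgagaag
Hspe1: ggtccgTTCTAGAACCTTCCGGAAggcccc

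A pair of repeat units was searched as GAANNTTC or TTCNNGAA, which covers both strands, and a run of 3 units as GAANNTTCNNGAA or TTCNNGAANNTTC. The longer motif always contains the shorter one. Within 250 bases upstream, the pair was present in 5 of the 6 members in the table and in 14.5% of all 27025 genes there. The letters of the pair were not in the Dnajb1 window. The run of 3 units was present in Hspd1 and Hspe1 and in 0.514% of all genes. It matched at 2 overlapping places in each of these windows, so the capitals of the Hspe1 stretch hold 4 alternating units. Hspd1 and Hspe1 lie head to head, and the stretch printed for Hspe1 serves both: it starts 95 bases before the Hspe1 start site and, read on the other strand, lies upstream of the RefSeq start of Hspd1, within an exon of a longer Hspd1 transcript in GENCODE. The Hsph1 stretch likewise reaches into the first exon that GENCODE gives for Hsph1. In Hspa1a and Hspa1b the pair began 104 bases before the start site.

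The positions are those of the GENCODE annotation vM21 on GRCm38. Hspa1a (ENSMUSG00000091971.3) lies at chr17:34969190-34972156 and Hspa1b (ENSMUSG00000090877.3) at chr17:34956436-34959238, both on the minus strand. Of the 50-base windows of the Hspa1a transcript, 58.8% also occurred in the Hspa1b transcript, 82.4% within the coding part and 2.09% in the 3′ UTR. Reads from the shared windows cannot be told apart between the copies, and how the authors treated such reads is not given in the sources used here. Exons of Hspa1a also overlap the opposite-strand gene Gm20481, and the strand setting of the counting is not given. Hsph1 lies at chr5:149614287-149636376, Hsp90aa1 at chr12:110690605-110702728, Hsp90ab1 at chr17:45567775-45573271 and Hspa8 at chr9:40800984-40810087. There 3 small nucleolar RNA genes overlap exons of annotated Hspa8 transcripts. Whether these exons belong to the main transcript was not examined. Hspd1 lies at chr1:55077835-55088243 and Hspe1 at chr1:55088132-55091307, and their first exons overlap on opposite strands. Dnajb1 lies at chr8:83608193-83612653 and Hsf1 at chr15:76477422-76501913.

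The libraries held 18.1 M to 34.2 M counts. Tet2 measured 12.6, 12.8 and 13.4 CPM (counts scaled to library size with TMM factors) in knockdown PBS mice 16, 17 and 19. It measured 14.1 and 23.1 CPM in mice 21 and 23, and 13.8 and 11.7 CPM in the ascorbate mice 28 and 30. The library labelled Tet2-restored of mouse 21 was thus close to the knockdown level, and the Tet2 difference between the groups had a log2 fold change of 0.52 (SE 0.24, edgeR adjusted p = 0.181). Markers of leukaemic progenitors (8 genes) summed to 435 to 872 CPM, most of it from Myb, Kit and Runx1t1. Prtn3 reached at most 8.79 CPM, Mpo at most 6.33 CPM, and Elane and Ctsg at most 0.653 CPM each. Elane, Ctsg or Cd34 was at 0 in 4 libraries. Runx1t1, part of the AE9a fusion, measured 101 to 108 CPM in the knockdown PBS mice, 155 and 304 CPM off doxycycline (log2 fold change 1.13, SE 0.24, edgeR adjusted p = 0.0507), 134 and 130 CPM under ascorbate and 185 CPM in primary mouse 12. Mitochondrial genes took 5.16% to 17.1% of counts, most in mouse 28 and next in mouse 23 (14.5%). The summed level of 12 splenic macrophage markers, none at 0 in any library, was 113 to 132 CPM in the knockdown PBS mice, 56.0 and 16.6 CPM in mice 21 and 23, 44.1 and 47.8 CPM in mice 28 and 30 and 79.9 CPM in the primary mouse. Much of this sum came from Slc40a1. It measured 90.6, 41.6 and 48.1 CPM in mice 16, 17 and 19, 21.6 and 4.14 CPM in mice 21 and 23, and 17.5 and 21.1 CPM in mice 28 and 30. In the primary mouse Slc40a1 measured 56.3 CPM, and no other marker of the list exceeded 5.26 CPM. Markers of B and plasma cells summed to at most 9.83 CPM and of T and NK cells to at most 2.69 CPM, while 9 erythroid markers summed to between 4055 and 12401 CPM in every library. The summed macrophage markers were lower in both groups in which several chaperone genes below were lower. The part of these markers in those results was not tested. The summed level of 13 immediate early genes, which respond to handling as well as to signals, was 420, 714 and 512 CPM in mice 16, 17 and 19, 699 and 550 CPM in mice 21 and 23, 425 and 323 CPM in mice 28 and 30, and highest in primary mouse 12 with 842 CPM. Of that list Egr2 alone was at 0 in any library, that of mouse 16. In bulk RNA, fewer cells of a type and less RNA per cell cannot be told apart.

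Hspa1b, Hsph1, Dnajb1, Hsp90aa1 and Hspd1 had lower values in each of the 4 mice off doxycycline or under ascorbate than in any knockdown PBS mouse. Hspa1a overlapped, and no difference of a member passed the test. Among chaperone and stress genes outside the members, Hspa4l, Dnaja1 and Tsc1 were examples also lower in all 4 mice. Others, such as Dnajb12, Hspb6, Ddit3 and Ubb, were higher in all 4 mice. The share of all genes lower in all 4 mice was not counted. In the single comparisons, 24.5% of all genes were lower without overlap off doxycycline and 23.5% under ascorbate. Off doxycycline, none of the 10 members passed the edgeR quasi-likelihood test at an adjusted p of 0.05 against the knockdown PBS mice, and 0% of the 12137 genes tested did. The smallest adjusted p among all genes was 0.0502, shared or nearly shared by 227 genes under 0.051, and Hsph1 was one of them. At an unadjusted p under 0.05, 6 of the 10 members were lower and 0 higher, against 15.2% of all genes lower. The same 6 genes had every mouse off doxycycline below every knockdown PBS mouse, against 24.5% of all genes. The estimates were below 0 for 10 of 10 members, against 50.2% of genes, and the median log2 fold change was -0.72, against -0.0020 over all genes. The members were chosen with earlier results of these data known, so their counts here and below are descriptions and not a test. With mouse 21 left out, so that mouse 23 stood alone and its spread came from the other groups, 4 members passed (Hsp90aa1, Hspa8, Hspd1 and Hsph1) among 1692 genes. With mouse 23 left out, 0 members and 0 genes passed. Voom and both limma-trend fits on FPKM also called 0 members and 0 genes, whereas the Wald test of DESeq2 called 6 members among 1951 genes.

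Under ascorbate, 0 of the 10 members passed the edgeR test against the same knockdown PBS mice, where 2.86% of the 12137 genes did (347 genes). At an unadjusted p under 0.05, 4 members were lower (12.9% of all genes) and 0 higher. In 5 members both ascorbate mice were below all 3 knockdown PBS mice (23.5% of all genes) and in 2 they were above (22.4%). Estimates were below 0 for 8 of 10 members, against 51% of genes, and the median log2 fold change was -0.43, against -0.012 over all genes. DESeq2 called 2 members, Hspa1b and Hsph1, among 1339 genes. Leaving out mouse 21 or mouse 23, which are not in this comparison but share its estimate of spread, gave 1 call, Hspa1b. The comparisons share the 3 knockdown PBS libraries, so their estimates are not independent.

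**Figure D1:**
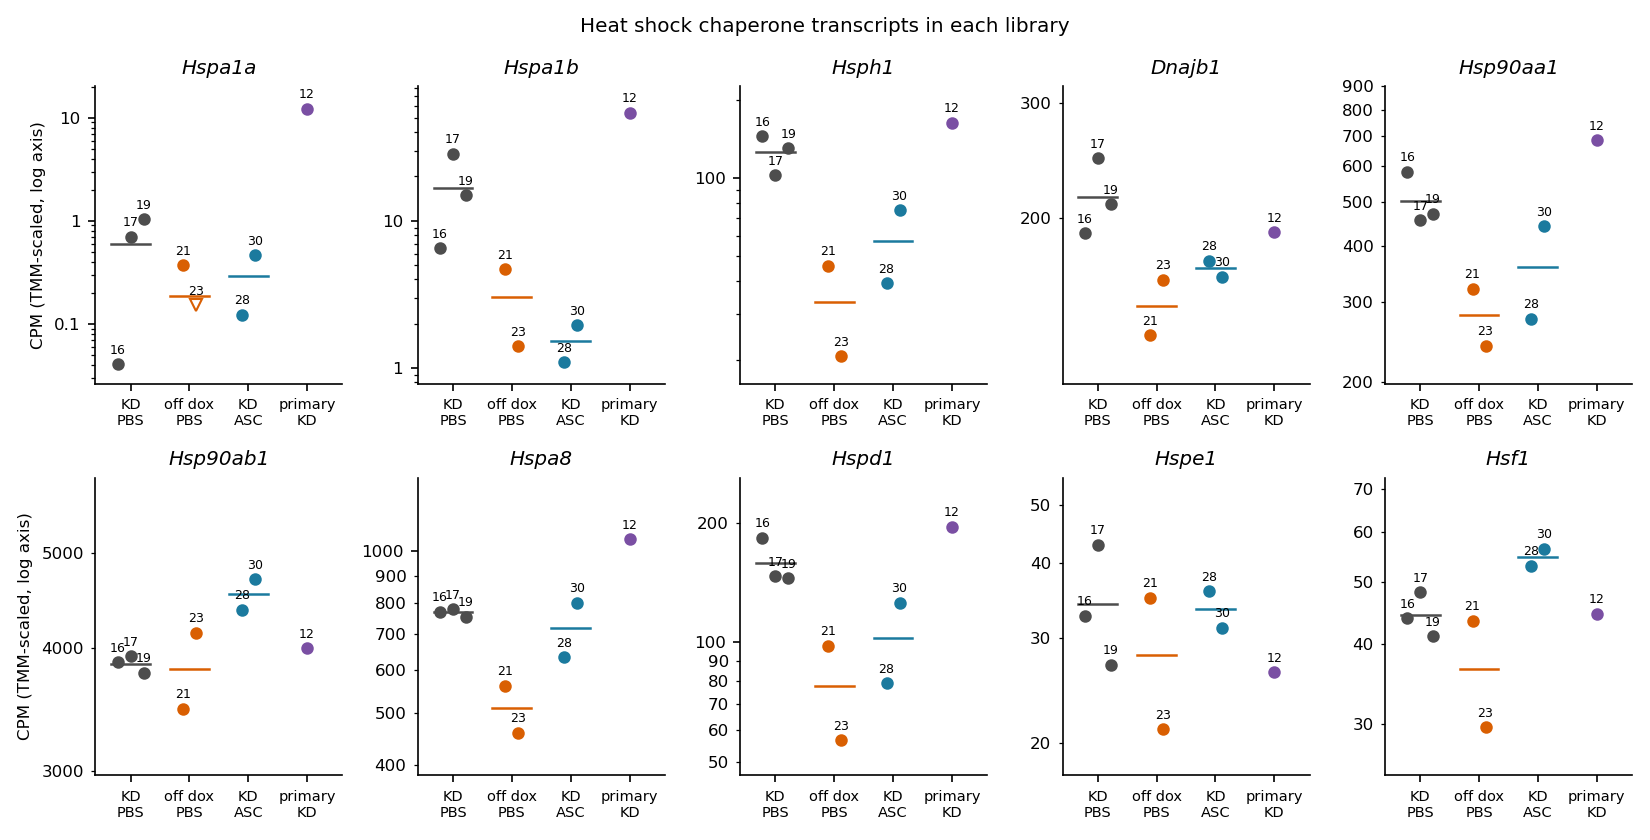
Level of each of the 10 genes in each library, as TMM-scaled CPM on a log axis. KD PBS is knockdown with PBS (mice 16, 17 and 19), off dox PBS is mice 21 and 23, KD ASC is knockdown with ascorbate (mice 28 and 30), primary KD is mouse 12, horizontal lines are group means, and the open triangle marks a count of 0 drawn at the 3-count limit. Hspa1b, Hsph1, Dnajb1, Hsp90aa1 and Hspd1 sit lower in all mice off doxycycline and under ascorbate than in any knockdown PBS mouse, while Hspe1 overlaps in both. The share of all genes with this pattern was not counted.

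Hspa1b, an inducible HSP70 made in little amount without stress, had the largest differences with separate ranges. It measured 6.49, 28.6 and 14.9 CPM in knockdown PBS mice 16, 17 and 19, 4.70 and 1.41 CPM in mice 21 and 23, and 1.10 and 1.97 CPM in ascorbate mice 28 and 30. All 4 mice of the other groups lay below the lowest knockdown PBS mouse, although mouse 21 was close to mouse 16. The log2 fold change was -2.43 off doxycycline (SE 0.71, edgeR adjusted p = 0.0800), which is 5.40-fold lower. Under ascorbate it was -3.42 (SE 0.77, edgeR adjusted p = 0.0575), which is 10.7-fold lower. There Hspa1b passed with the length offset (edgeR adjusted p = 0.0488), as 486 genes did. It also passed with only the groups compared in the fit (edgeR adjusted p = 0.0404), as 855 genes did.

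Hspa1a, the near-identical neighbour, was counted very rarely in the secondary recipients. It had 1, 17 and 29 counts in knockdown PBS mice 16, 17 and 19, 9 and 0 in mice 21 and 23 and 2 and 11 in mice 28 and 30. The groups overlapped, and the 0 of mouse 23 allows up to 0.152 CPM. It entered the test through 3 libraries with more than 10 counts. The log2 fold changes were -1.58 (SE 1.24, edgeR adjusted p = 0.417) off doxycycline and -0.95 (SE 1.18, edgeR adjusted p = 0.647) under ascorbate. Since reads of the copies can be shared, their sum is the firmer measure: 6.54, 29.3 and 16.0 CPM in the knockdown PBS mice, 5.07 and 1.41 CPM off doxycycline and 1.22 and 2.43 CPM under ascorbate. With both copies counted as 1 gene, the log2 fold change was -2.40 off doxycycline (edgeR adjusted p = 0.0923) and -3.22 under ascorbate (edgeR adjusted p = 0.0753).

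Hsph1, the HSP110 that recharges HSP70, measured 145, 103 and 130 CPM in knockdown PBS mice 16, 17 and 19. It measured 45.9 and 20.7 CPM in mice 21 and 23, and 39.4 and 75.1 CPM in mice 28 and 30. No mouse of either group reached the lowest knockdown PBS mouse, and mouse 23 was the lowest of all. Off doxycycline the log2 fold change came to -1.92 (SE 0.39, edgeR adjusted p = 0.0502), 3.79-fold lower. That value lay at the threshold: it passed with DESeq2 size factors in edgeR (adjusted p = 0.0487) and with a minimum of 50 counts (adjusted p = 0.0470), and was 0.0166 without mouse 21 but 0.313 without mouse 23. With DESeq2 size factors in edgeR 367 genes passed off doxycycline, and with a minimum of 50 counts 426 genes did. Under ascorbate the log2 fold change of Hsph1 came to -1.14 (SE 0.37, edgeR adjusted p = 0.119).

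Dnajb1, the HSP40 that loads clients on inducible HSP70, varied less. It measured 189, 247 and 209 CPM in the knockdown PBS mice, 132 and 161 CPM off doxycycline and 172 and 163 CPM under ascorbate. The ranges were separate in both comparisons, with log2 fold changes of -0.55 (SE 0.17, edgeR adjusted p = 0.0757) and -0.37 (SE 0.16, edgeR adjusted p = 0.208). Dnajb1 was the inducible member in which the primary mouse, at 190 CPM, did not exceed the knockdown PBS mice.

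Hsp90aa1, the inducible HSP90, measured 583, 456 and 471 CPM in knockdown PBS mice 16, 17 and 19. It measured 321 and 241 CPM in mice 21 and 23, and 276 and 442 CPM in mice 28 and 30. Mouse 30 lay just under the lowest knockdown PBS mouse, and the other 3 were well below. The log2 fold change was -0.84 off doxycycline (SE 0.23, edgeR adjusted p = 0.0663) and -0.50 under ascorbate (SE 0.23, edgeR adjusted p = 0.220).

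Hsp90ab1, the HSP90 made without stress, did not follow its relative. It measured 3869, 3925 and 3777 CPM in the knockdown PBS mice, 3470 and 4146 CPM off doxycycline, and 4374 and 4697 CPM under ascorbate. Both ascorbate mice were above all knockdown PBS mice, and the mice off doxycycline lay on either side of them. The log2 fold changes were -0.019 (SE 0.15, edgeR adjusted p = 0.942) and 0.22 (SE 0.14, edgeR adjusted p = 0.369).

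Hspa8, the abundant HSP70 of unstressed cells, measured 772, 780 and 755 CPM in the knockdown PBS mice, the narrowest spread among the HSP70 genes. It measured 562 and 459 CPM in mice 21 and 23 and 635 and 801 CPM in mice 28 and 30. Off doxycycline both mice were below the others (log2 fold change -0.59, SE 0.16, edgeR adjusted p = 0.0644), whereas the ascorbate mice lay on either side of them (-0.11, SE 0.15, edgeR adjusted p = 0.696). Between the mice off doxycycline and the ascorbate mice, Hspa8 had the smallest adjusted p of the members (log2 fold change -0.48, SE 0.17, edgeR adjusted p = 0.228). In that comparison 0 of 10 members passed, where 0.00824% of genes did (1 gene), 2 were lower at an unadjusted p under 0.05 (7.35% of all genes), and DESeq2 also called 0.

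Hspd1, the HSP60 ring of mitochondria, measured 184, 147 and 145 CPM in knockdown PBS mice 16, 17 and 19, 98.2 and 56.6 CPM in mice 21 and 23, and 78.8 and 126 CPM in mice 28 and 30. All 4 lay below the knockdown PBS mice. The log2 fold changes were -1.04 off doxycycline (SE 0.28, edgeR adjusted p = 0.0644) and -0.64 under ascorbate (SE 0.27, edgeR adjusted p = 0.192). Hspe1, the HSP10 lid of the same chamber, measured 32.6, 42.9 and 27.1 CPM in the knockdown PBS mice, 35 and 21.1 CPM off doxycycline and 35.9 and 31.2 CPM under ascorbate. Its groups overlapped in both comparisons, with log2 fold changes of -0.28 (SE 0.26, edgeR adjusted p = 0.484) and -0.037 (SE 0.26, edgeR adjusted p = 0.943). Hspe1 and Hspd1 share the stretch of overlapping repeat units printed above.

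Hsf1, the factor itself, measured 43.9, 48.2 and 41.2 CPM in the knockdown PBS mice, 43.5 and 29.7 CPM in mice 21 and 23 and 53.0 and 56.5 CPM in mice 28 and 30. Both ascorbate mice were above every knockdown PBS mouse, with a log2 fold change of 0.29 (SE 0.19, edgeR adjusted p = 0.372). Off doxycycline the ranges overlapped, with a log2 fold change of -0.28 (SE 0.19, edgeR adjusted p = 0.353). HSF1 is controlled largely as a protein, so its transcript is not a measure of its activity.

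**Figure D2:**
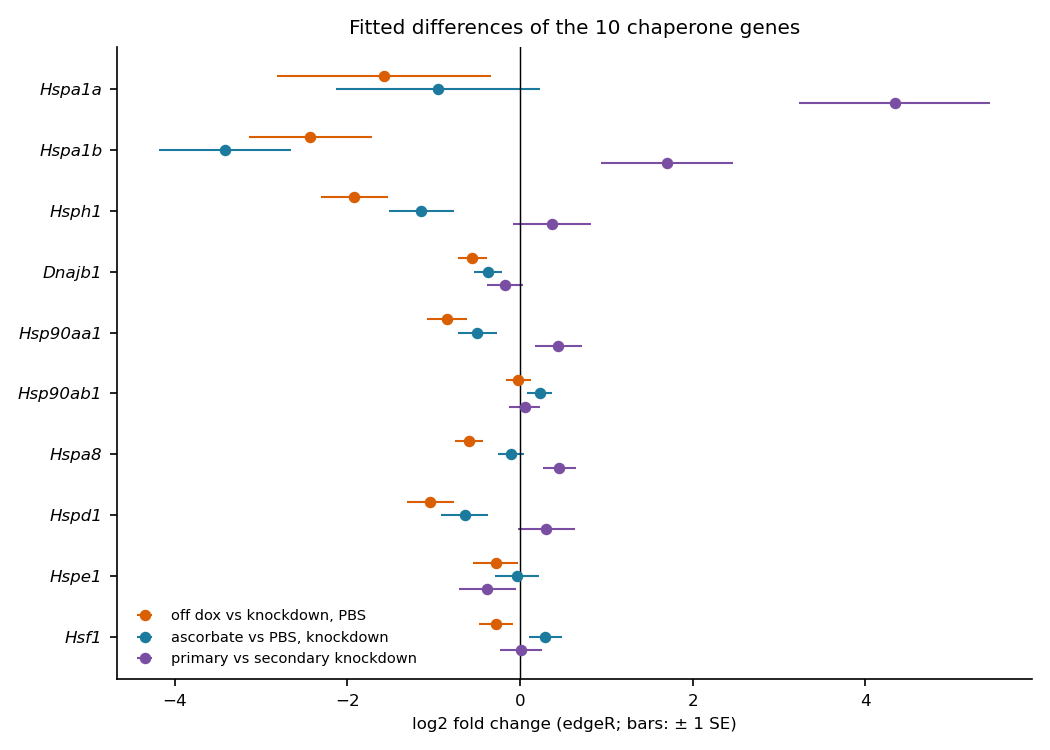
Fitted log2 fold change (horizontal axis) of each of the 10 genes in 3 comparisons with the knockdown PBS mice, with bars of 1 SE on either side from edgeR. Off doxycycline (orange) all 10 estimates lie below 0, under ascorbate (blue) 8 do, and none passed an adjusted p of 0.05.

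Mouse by mouse, the median log2 difference of the 10 genes from the knockdown PBS mean was -0.0045, 0.073 and -0.030 in mice 16, 17 and 19 themselves. The value was -0.55 and -0.90 for mice 21 and 23, then -0.59 and -0.14 for mice 28 and 30. Mouse 30 was thus nearer to the knockdown PBS mice than mouse 28 was. Mouse 23 and mouse 28 also had the largest mitochondrial shares (14.5% and 17.1%), whereas mice 21 and 30 (9.49% and 9.73%) were within the knockdown PBS range of 9.09% to 11.4%. The part of the mitochondrial share in these differences was not tested.

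Ratios of inducible to constitutive relatives within a library do not depend on how libraries are scaled. Hsp90aa1 had 0.151, 0.116 and 0.125 counts per Hsp90ab1 count in knockdown PBS mice 16, 17 and 19. It had 0.0926 and 0.0580 in mice 21 and 23, and 0.0631 and 0.0940 in mice 28 and 30. The ranges were separate on both sides, with log2 differences of -0.82 off doxycycline and -0.75 under ascorbate. Each had an exact two-sided permutation p = 0.2, the smallest that 3 against 2 libraries can give, and an adjusted p = 0.267 over 8 such tests.

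Inducible HSP70 (Hspa1a plus Hspa1b) had 0.00847, 0.0376 and 0.0211 counts per Hspa8 count in the knockdown PBS mice, 0.00902 and 0.00308 off doxycycline and 0.00193 and 0.00303 under ascorbate. The log2 difference was -1.84 off doxycycline, where mouse 21 overlapped mouse 16 (exact permutation p = 0.4), and -2.97 under ascorbate, where the ranges were separate (exact permutation p = 0.2). Hsph1 had 0.188, 0.131 and 0.172 counts per Hspa8 count in the knockdown PBS mice, 0.0817 and 0.0450 off doxycycline, and 0.0621 and 0.0937 under ascorbate. Its log2 differences were -1.42 and -1.09, both with separate ranges (exact permutation p = 0.2 each).

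The ratio within the mitochondrial pair differed in the opposite direction. Hspe1 had 0.178, 0.292 and 0.186 counts per Hspd1 count in the knockdown PBS mice and 0.357 and 0.373 in mice 21 and 23, a log2 difference of 0.78 with separate ranges (exact permutation p = 0.2). In mice 28 and 30 it had 0.455 and 0.248, which overlapped the knockdown PBS mice (log2 difference 0.66, exact permutation p = 0.4). Hspd1 is 1.79 times as long as Hspe1 by the ratio of counts to deposited FPKM, and libraries differed in how their levels depended on transcript length. Spearman's rho across 10922 genes between transcript length and the level relative to the knockdown PBS mean was 0.42, -0.38 and -0.093 for mice 16, 17 and 19. It was -0.48 and -0.27 off doxycycline (mice 21 and 23), -0.29 and -0.12 under ascorbate (mice 28 and 30) and 0.34 in primary mouse 12. The median log2 fold change of the members in the primary mouse against the knockdown PBS mice was 0.34, and 0.31 with an offset for length. With an offset for length, the fitted difference between Hspe1 and Hspd1 was 0.63 off doxycycline, against 0.75 without it, and 0.51 under ascorbate, against 0.60. The same offset left -0.73 and -0.66 for Hsp90aa1 against Hsp90ab1, and -1.15 and -0.98 for Hsph1 against Hspa8.

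**Figure D3:**
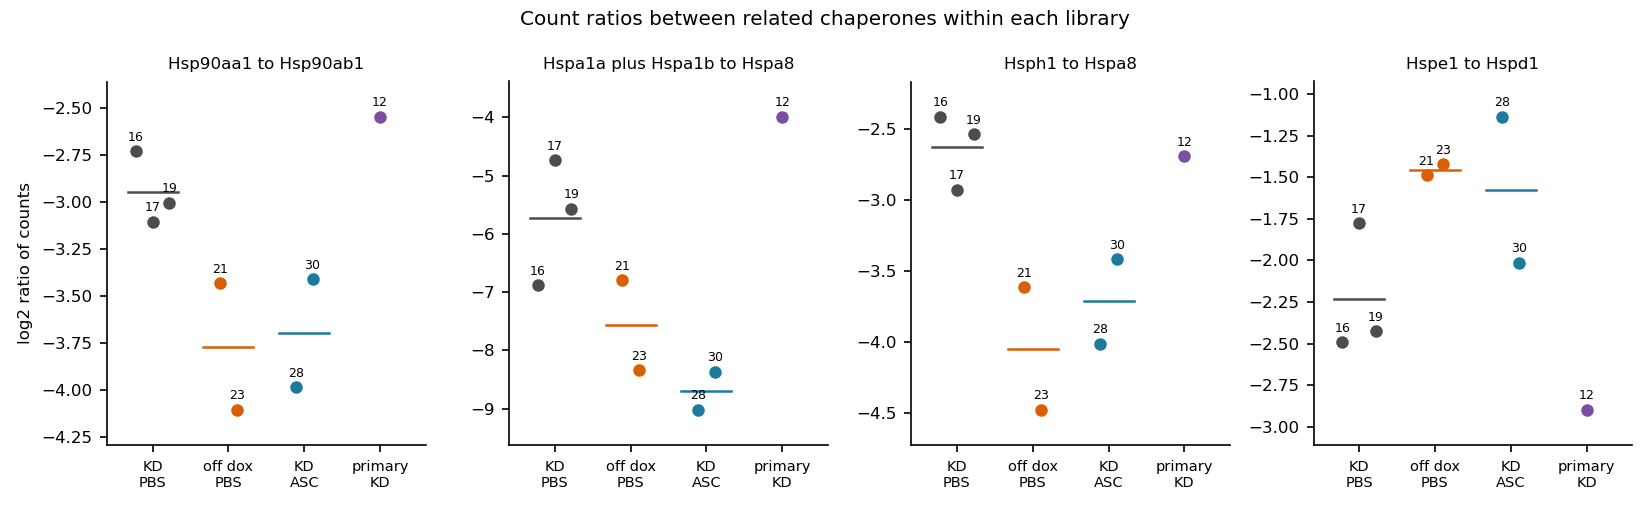
Log2 ratio of counts (vertical axis) of 4 chaperone pairs in each library, grouped as in the plot of levels, with lines at group means and mouse numbers beside the points. Hsp90aa1 per Hsp90ab1 and Hsph1 per Hspa8 are lower in all 4 mice of the treated groups than in the knockdown PBS mice, and Hspe1 per Hspd1 is higher in mice 21, 23 and 28 than in any knockdown PBS mouse.

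The primary mouse was on doxycycline like the knockdown PBS mice and had the highest level of 6 inducible or related members. Hspa1a measured 12.2 CPM there (429 counts), Hspa1b 54.1 CPM, Hsph1 163 CPM, Hsp90aa1 685 CPM, Hspa8 1052 CPM and Hspd1 196 CPM. Dnajb1 (190 CPM), Hsf1 (44.6 CPM), Hsp90ab1 (3996 CPM) and Hspe1 (26.3 CPM) were not the highest there. The share of all genes with their highest level in this library was not counted. It was also the deepest library (34.2 M counts) and had the lowest mitochondrial share (5.16%). Against the 3 knockdown PBS mice, in a fit that borrows the spread of the lone library from the other groups, 0 of 10 members passed and 0.115% of 13024 genes did (15 genes). At an unadjusted p under 0.05, 2 members were higher (4.39% of all genes), and DESeq2 called 0. In 7 members the primary library was above all 3 knockdown PBS mice, as in 31.8% of all genes.

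Hspa1a had the largest estimate in the primary mouse, a log2 fold change of 4.34 (SE 1.11, 20.2-fold, edgeR adjusted p = 0.268). It passed with limma voom and without a filter on low counts. The immediate early genes Fos (126 CPM), Fosb (201 CPM), Dusp1 (122 CPM) and Jun (130 CPM) also had their highest level in the primary mouse. The other genes of that list did not, and Junb (55.2 CPM) had its lowest level there. Within the knockdown PBS mice the summed immediate early list was lowest in mouse 16 and highest in mouse 17, as Hspa1b was. Mice 21 and 23 differed: their sums (699 and 550 CPM) were above that of mouse 16 (420 CPM). Their Hspa1b (4.70 and 1.41 CPM) was below that of mouse 16 (6.49 CPM). The part of the list in the Hspa1a and Hspa1b values was not tested. Hspa1b had a log2 fold change of 1.70 (SE 0.77, edgeR adjusted p = 0.576), and both copies summed to 66.3 CPM, with a log2 fold change of 1.94 (edgeR adjusted p = 0.531). Of the reads given to either copy, Hspa1a took 18.4% in the primary mouse (429 of 2335, exact 95% interval 16.8% to 20.004%). It took 0.617% (1 of 162), 2.38% (17 of 714) and 6.52% (29 of 445) in mice 16, 17 and 19, 7.32% (9 of 123) and 0% (0 of 28, up to 12.3%) in mice 21 and 23, and 2 of 20 reads and 19.0% (11 of 58) in mice 28 and 30. The share of the primary mouse lay above the exact interval of every knockdown PBS mouse (at most 9.23%), and the ascorbate mice reached it with few reads. These intervals cover counting error only.

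Levels of different genes can be compared per transcript length, as deposited FPKM. In the knockdown PBS mice (n = 3, mean ± SD) Hsp90ab1 led with 1276 ± 22.2 FPKM, followed by Hspa8 with 177 ± 2.62 and Hsp90aa1 with 127 ± 18. Dnajb1 with 66.6 ± 8.73 and Hspd1 with 59.6 ± 8.31 overlapped in range. Hspe1 with 23.0 ± 5.31 and Hsf1 with 21.8 ± 1.69 also overlapped. Hsph1 with 17.2 ± 2.99, Hspa1b with 5.89 ± 3.93 and Hspa1a with 0.197 ± 0.172 FPKM came last, without overlap between neighbours. Off doxycycline the order of means was the same, with Hsph1 at 4.48 ± 2.34 FPKM (n = 2) and overlaps from Hspd1 to Hspe1 and from Hspe1 to Hsf1. Under ascorbate Hsf1 (26.7 ± 1.12 FPKM, n = 2) stood above Hspe1 (22.4 ± 2.26 FPKM) without overlap. In the primary mouse Hspa1b, at 19.4 FPKM, stood above Hspe1, at 17.9 FPKM.

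Among the members, levels in log2 CPM over the 8 libraries followed Hsph1 most closely in Hspd1 (Pearson r 0.99), Hsp90aa1 (0.97) and Hspa8 (0.91), less in Hspa1b (0.79), Hspa1a (0.63) and Dnajb1 (0.61), and least in Hsf1 (0.40), Hspe1 (0.24) and Hsp90ab1 (-0.20). These values are descriptions, since the libraries share depth, length trend and group differences. Over all 8874 genes with at least 5 CPM on average, the genes most like the mean of the 5 inducible members were Smarcal1, Ndufab1, Kdelc1, Akap1, Pigb, Cspp1, Rttn, Tars, Gpat4 and Nadk. Their Pearson r ran from 0.942 to 0.954 over 8 libraries, and from 0.81 to 0.93 without the 2 libraries farthest from the median. Tars, the threonyl-tRNA synthetase, measured 239, 231 and 218 CPM in the knockdown PBS mice, 167 and 127 CPM off doxycycline, 132 and 195 CPM under ascorbate and 330 CPM in primary mouse 12. Gpat4, an acyltransferase of glycerolipid synthesis, measured 55.0, 54.5 and 55.1 CPM, then 34.4 and 31.3 CPM, 34.2 and 37.0 CPM, and 80.8 CPM in the same order.

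The other chaperones and cochaperones were described from 131 genes in 10 lists, of which 119 were tested. These lists too were chosen with earlier results of these data known, so their counts and medians are descriptions. Off doxycycline 0 of 119 passed in edgeR, with 29 lower and 10 higher at an unadjusted p under 0.05 (15.2% and 14.1% of all genes), and the median log2 fold change was -0.11. Under ascorbate 2 rose and 2 fell in edgeR, 17 were lower and 11 higher at an unadjusted p under 0.05 (12.9% and 10.7% of all genes), and the median was 0.041. In the primary mouse 0 passed, with 5 lower and 1 higher at an unadjusted p under 0.05 (4.69% and 4.39% of all genes).

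The HSP70 and HSP110 relatives held a gene that resembled Hsph1. Hspa4l, another HSP110, measured 256, 150 and 159 CPM in the knockdown PBS mice, 72.5 and 49.1 CPM off doxycycline, 96.4 and 93.4 CPM under ascorbate and 293 CPM in primary mouse 12. All 4 treated or withdrawn mice lay below the knockdown PBS mice, with log2 fold changes of -1.64 (SE 0.27, edgeR adjusted p = 0.0502) and -1.001 (SE 0.26, edgeR adjusted p = 0.0716). Of the 6 tested relatives, 4 were lower at an unadjusted p under 0.05 off doxycycline (15.2% of all genes) and 3 under ascorbate (12.9%). Hspa13, an HSP70 of the endoplasmic reticulum, had -0.89 (SE 0.24, edgeR adjusted p = 0.0659) off doxycycline, and Hspa2, a testis-rich HSP70, had -1.04 (SE 0.26, edgeR adjusted p = 0.0643) under ascorbate. Off doxycycline Hspa2 had 0.49 (SE 0.25, edgeR adjusted p = 0.215), with both mice above all knockdown PBS mice.

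Among 16 J-domain cochaperones, which stimulate the ATPase of HSP70, Dnajb12 rose under ascorbate. This HSP40 of the endoplasmic reticulum membrane measured 73.6, 78.6 and 70.9 CPM in the knockdown PBS mice and 185 and 153 CPM in mice 28 and 30 (log2 fold change 1.17, SE 0.20, edgeR adjusted p = 0.0298). Mice 21 and 23, at 89.8 and 144 CPM, were also above all knockdown PBS mice (log2 fold change 0.65, SE 0.20, edgeR adjusted p = 0.0830). Off doxycycline Dnajc13 had -1.04 (SE 0.22, edgeR adjusted p = 0.0502) and Dnaja1, an inducible cytosolic HSP40, -0.80 (SE 0.20, edgeR adjusted p = 0.0563), within a list whose median was 0.0032. Among 9 tested exchange factors and BAG proteins, 0 passed in either comparison. Sil1, the exchange factor of BiP, had 0.44 (edgeR adjusted p = 0.129) off doxycycline and 0.59 (edgeR adjusted p = 0.0924) under ascorbate.

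The 18 HSP90 cochaperones had a median log2 fold change of -0.33 off doxycycline, with 15 estimates below 0 (50.2% of all genes) and 6 lower at an unadjusted p under 0.05 (15.2% of all genes). Ppid, a cyclophilin partner of HSP90, measured 45.0, 38.2 and 41.8 CPM in the knockdown PBS mice and 15.0 and 10.9 CPM in mice 21 and 23 (log2 fold change -1.69, SE 0.29, edgeR adjusted p = 0.0502). Under ascorbate the median was 0.0014, and Tsc1, a cochaperone better known as a brake on mTORC1, fell from 53.3, 45.0 and 47.4 CPM to 23.3 and 18.7 CPM (log2 fold change -1.22, SE 0.18, edgeR adjusted p = 0.0250). In the primary mouse Fkbp5, a glucocorticoid-inducible immunophilin, measured 0.170 CPM against 1.13, 2.50 and 4.02 CPM in the knockdown PBS mice (log2 fold change -3.87, SE 0.86, edgeR adjusted p = 0.151).

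Only 2 of the 5 small heat shock proteins could be tested, and Hspb1, the best known of them, had 0 counts in all 8 libraries. Hspb6 measured 14.7, 18.5 and 12.8 CPM in the knockdown PBS mice, 27.9 and 29.4 CPM off doxycycline and 27.0 and 25.3 CPM under ascorbate. Its direction was opposite to that of the inducible members, with log2 fold changes of 0.90 (SE 0.20, edgeR adjusted p = 0.0520) and 0.76 (SE 0.20, edgeR adjusted p = 0.0709). Of 15 mitochondrial chaperones and proteases, 9 were below 0 off doxycycline (50.2% of all genes) and 7 under ascorbate (51%). The medians were -0.15 and 0.019. Yme1l1, a protease of the inner membrane, had -0.70 (edgeR adjusted p = 0.0800) off doxycycline and -0.55 (edgeR adjusted p = 0.163) under ascorbate. Hscb of the same list had 0.57 (edgeR adjusted p = 0.114) off doxycycline. Trap1, the HSP90 of mitochondria, had -0.46 (edgeR adjusted p = 0.109) off doxycycline, and Dnaja3, the HSP40 of mitochondria, had -0.71 (SE 0.16, edgeR adjusted p = 0.0512) under ascorbate. The 15 subunits and partners of the chaperonin TRiC and prefoldin had medians of -0.070 and 0.0078. Off doxycycline Pfdn5, a prefoldin subunit, had 0.61 (edgeR adjusted p = 0.0729), and Cct8, a TRiC subunit, had -0.38 (edgeR adjusted p = 0.105). Under ascorbate Pfdn5 had 0.48 (edgeR adjusted p = 0.152).

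Of 22 chaperones of the endoplasmic reticulum and genes of the unfolded protein response, 16 were below 0 off doxycycline (50.2% of all genes), with a median of -0.27. Under ascorbate 11 were above and 11 below 0, with a median of 0.016. Off doxycycline Hspa5 (BiP) had -0.51 (SE 0.18, edgeR adjusted p = 0.0993), whereas Ddit3 (CHOP), a stress-induced transcription factor, measured 26.7, 28.2 and 22.9 CPM in the knockdown PBS mice and 45.9 and 53.1 CPM in mice 21 and 23 (log2 fold change 0.93, SE 0.18, edgeR adjusted p = 0.0502). Under ascorbate Ddit3 had 0.72 (edgeR adjusted p = 0.0614). In the list of heat shock factors and regulators the 5 tested genes were all regulators, with a median of -0.016 off doxycycline. Sirt1, a deacetylase that acts on HSF1, had -0.70 (edgeR adjusted p = 0.0920) off doxycycline and Ep300, an acetyltransferase, had -0.56 (edgeR adjusted p = 0.110). Hsbp1 had 0.35 (edgeR adjusted p = 0.171) off doxycycline and 0.30 (edgeR adjusted p = 0.277) under ascorbate, with separate ranges in both.

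The 11 tested genes of a further list of HSF1-inducible genes did not share one direction: 6 were above and 5 below 0 off doxycycline, and the counts were the same under ascorbate. Under ascorbate Tcp11l2 rose from 22, 21.8 and 21.2 CPM to 78.3 and 44.8 CPM (log2 fold change 1.49, SE 0.30, edgeR adjusted p = 0.0387). Jun, a stress-responsive and immediate early transcription factor, fell from 69.6, 111 and 70.2 CPM to 42.0 and 23.7 CPM (log2 fold change -1.36, SE 0.29, edgeR adjusted p = 0.0439). Hmox1, the haem oxygenase, which is also high in splenic macrophages, measured 5.65, 7.14 and 8.14 CPM in the knockdown PBS mice and 2.47 and 1.46 CPM off doxycycline (log2 fold change -1.82, SE 0.35, edgeR adjusted p = 0.0502). The summed macrophage markers were lower off doxycycline too, and their part was not tested. Rgs2, of the same list of HSF1-inducible genes, was higher off doxycycline (log2 fold change 1.09, SE 0.24, edgeR adjusted p = 0.0520).

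The 4 calls under ascorbate depended on single libraries of the groups compared. Without mouse 16, 19, 28 or 30 each of Dnajb12, Tsc1, Tcp11l2 and Jun lost its call, and without mouse 17 all but Tsc1 did, with edgeR adjusted p-values that reached 0.155, 0.126, 0.222 and 0.157 in that order. The 4 genes made up 2 of 119 in each direction, against 1.09% of all genes higher and 1.77% lower.

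**Figure D4:**
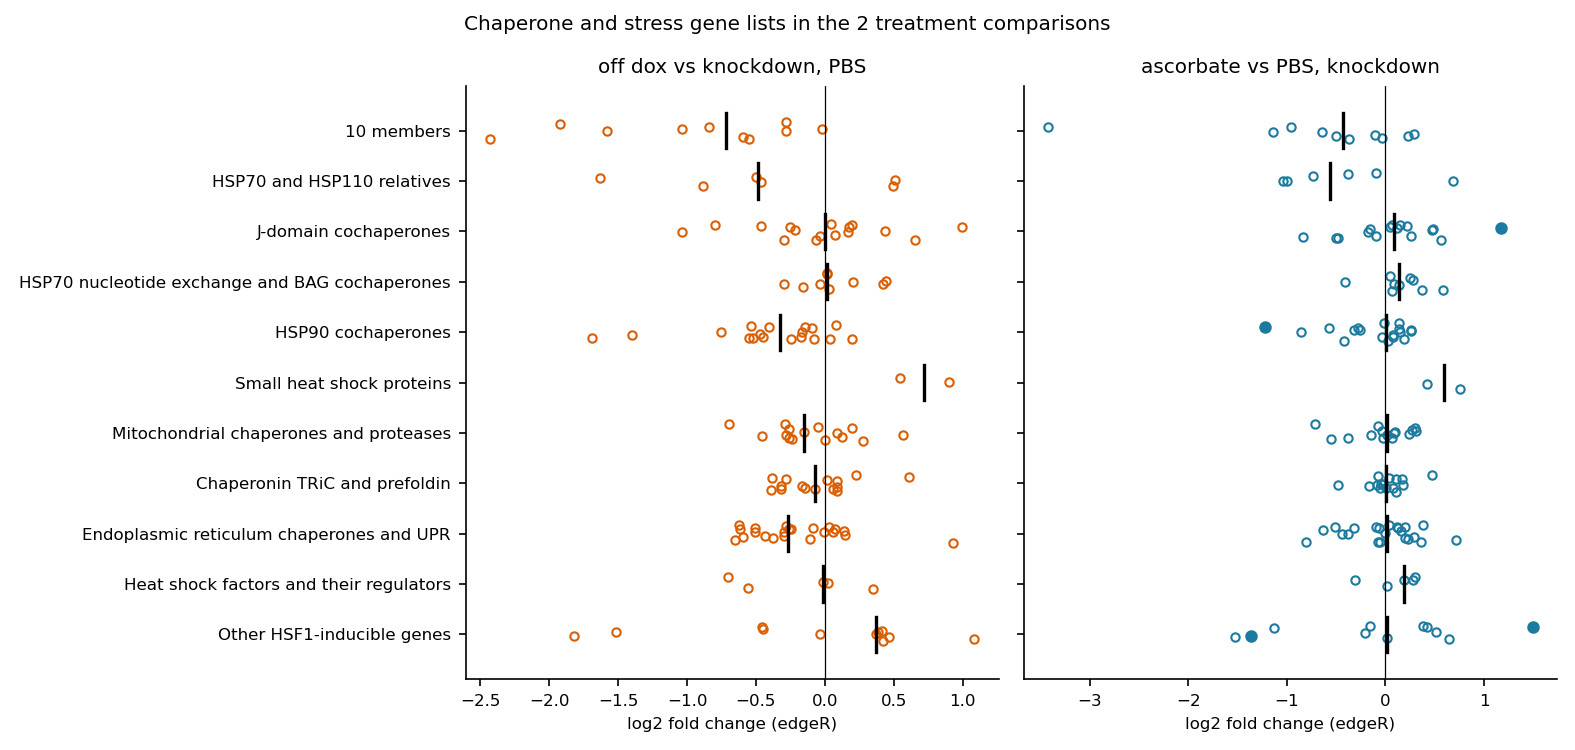
Log2 fold change of each tested gene (points) in 10 lists of other chaperones and stress genes, off doxycycline and under ascorbate, each against the knockdown PBS mice, with the 10 members on top, a vertical bar at each median and filled points for genes past an adjusted p of 0.05. Off doxycycline the medians of the HSP70 and HSP110 relatives and of the HSP90 cochaperones lie at -0.48 and -0.33, and those of the small heat shock proteins and of the other HSF1-inducible genes at 0.72 and 0.37.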

How the data were processed

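RNA-seq of 8 libraries was used as 2 tables. Raw counts per gene symbol are the authors' deposited whole numbers, and FPKM values are the authors' deposited table for the same libraries. STAR, featureCounts and DESeq2 with mm10 (GRCm38) are named in the submitters' processing notes, without versions or strand. Depth was 18.1 M to 34.2 M counts per library, and 1 count was worth 0.0284 to 0.0611 CPM. Groups and the mouse number came from the sample titles. No label says whether recipients of a group received 1 donor leukaemia, so p-values measure only the spread between these mice.

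Counts were tested in edgeR 4.0.16 under R 4.3.3 (glmQLFit and glmQLFTest, TMM, robust fit, filterByExpr minimum count 10) and Benjamini-Hochberg adjustment over all genes tested, threshold 0.05. The 7 secondary libraries were fitted together for 3 comparisons and all 8 for the primary library. The test was tried on simulated counts. Ratios were tested by exact two-sided permutation. Alternatives were other scalings, DESeq2 1.42.0, limma 3.58.1 (voom, and limma-trend on log2 FPKM with a pseudocount of 0.1 or 1), other filters, a length offset, summed Hspa1 copies, fewer groups and each library left out. The members and lists were chosen with earlier results of these data known. From each list, members past the threshold (at most 4) are named, or else some of the 2 with the smallest p. Genes alike were ranked by Pearson r with the mean of 5 inducible members. Promoters are from RefSeq (GRCm38.p6), searched with the letters given.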

Additional observations from a re-analysis of the deposited data

How the results depend on the processing

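Under TMM, DESeq2 size factors and library totals, 10 of 10 members were below 0 off doxycycline and 8 of 10 under ascorbate. The ratios of pairs kept their direction in FPKM, with the length offset (chosen after seeing the data, and run for the 3 pairs of single genes) and with each library left out.

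Off doxycycline, where 0 members and 0 genes passed, DESeq2 size factors in edgeR gave 1 member and 367 genes, the DESeq2 Wald test 6 and 1951, no filter 6 and 2207, and a minimum of 50 counts 1 and 426. Leaving out each library gave 0 to 4 members and 0 to 1692 genes, the highest without mouse 21. Under ascorbate, with 0 members and 347 genes, DESeq2 gave 2 and 1339, voom 1 and 1105, no filter 3 and 1498, only the groups compared 1 and 855, and limma-trend on log2(FPKM + 0.1) and the length offset 1 member each. Leaving out each library gave 0 to 1 members and 2 to 796 genes (2 without mouse 28, 796 without mouse 21). Between mice off doxycycline and under ascorbate, with 0 members and 1 gene, DESeq2 gave 444 genes, both limma-trend fits 3, no filter 1 member (Hsph1) and 582 genes, only the groups compared 0 genes, and left-out libraries 0 to 5 genes (0 without mouse 17 or 28, 5 without mouse 23). For the primary mouse, with 0 members and 15 genes, DESeq2 gave 220 genes, voom 1 member (Hspa1a) and 279 genes, limma-trend on log2(FPKM + 0.1) 8 genes, no filter 1 member (Hspa1a) and 467 genes, and left-out libraries 6 to 45 genes (6 without mouse 17, 45 without mouse 16). The cause of these shifts was not tested.

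Some estimates of single genes changed sign. With a minimum of 50 counts Hsp90ab1 had 0.0013 off doxycycline and Hsf1 -0.0063 in the primary mouse, and Hsf1 had -0.018 there with only the groups compared. With voom Hspe1 had 0.14 under ascorbate, and with the length offset Tet2 had 0.16 under ascorbate and Hspb11 0.035 in the primary mouse. With libraries left out, ranges that crossed 0 were -0.16 to 0.11 (Hsp90ab1) and -0.69 to 0.028 (Hspe1) off doxycycline. Under ascorbate they were -0.29 to 0.057 (Hspa8), -0.18 to 0.15 (Hspe1) and -0.15 to 0.072 (Tet2). Between mice off doxycycline and under ascorbate they were -5.83 to 0.66 (Hspa1a), -0.13 to 1.59 (Hspa1b), -0.65 to 0.037 (Hsp90aa1), -0.66 to 0.064 (Hspe1) and -0.015 to 0.27 (Hspb11), and for the primary mouse -0.020 to 0.067 (Hsf1) and -0.24 to 0.0037 (Hspb6). No paired analysis was possible because the mouse numbers are not shared between groups. Depth limits Hspa1a, with 0 to 29 counts in secondary recipients, more than any other member.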
